A study of Drosophila melanogaster with 6 samples.

Results

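Stress-related bZIP transcription factors were examined in macrophages sorted from Drosophila embryos, as the 10 genes Xrp1, Irbp18, crc, Atf3, Atf6, Xbp1, cnc, maf-S, CrebA and CrebB. They were chosen by name, with earlier results of these data known, as bZIP factors other than kay and Jra. The 10 act in stress responses, secretion or CREB signalling, and all were found among the 17494 genes of the deposited files. The samples are 3 replicates from mac>DfosDN embryos (srpHemo-Gal4 and srpHemo-3xmCherry over UAS-DfosDN) and 3 from control embryos, which carry the driver and the mCherry marker without the UAS transgene. DfosDN is a dominant negative form of Dfos, the fly Fos protein encoded by kay, which lacks the activation domain and keeps the bZIP domain. It was expressed from the macrophage driver srpHemo-Gal4, on top of the endogenous gene. Both groups were labelled as stage 11, and each replicate is a separate sort of mCherry-positive cells pooled from many embryos, so the p-values measure the spread between sorts.

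bZIP factors bind DNA as dimers through a basic region and a leucine zipper, and the choice of partner sets which sites are bound. Fos proteins form the AP-1 dimer with Jun. The factors described here are other members of the family, among which Atf3 can also pair with Jun. Xrp1 and Irbp18 dimerise with each other and act in the DNA damage response and in the removal of cells with ribosomal protein defects. Atf6, Xbp1 and crc, the fly ATF4, relay stress from the endoplasmic reticulum (ER), the compartment through which embryonic macrophages pass the large amounts of basement membrane they secrete. Cnc with maf-S drives antioxidant genes, CrebA drives genes of the secretory machinery, and CrebB is the fly CREB.

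Of the 10 genes, 3 fell in mac>DfosDN macrophages and 0 rose at an adjusted p under 0.05 (limma with Benjamini-Hochberg adjustment over the 7525 genes tested, of which 2.02% fell and 1.61% rose). Irbp18 was 2.18-fold lower and Xbp1 2.20-fold lower by the group means. The decimal points of Irbp18 were placed alike with and without the sample groups, but with less certainty without them. The call for Irbp18 is lost where every point takes its smallest possible place. Xrp1 was 3.89-fold lower at the likeliest places of its decimal points, but those places could not be restored with certainty, and the call is lost where they are placed without the sample groups. The call for Xbp1 is close to the threshold and is lost under 16 of 30 alternatives. crc, Atf3, Atf6, cnc, maf-S, CrebA and CrebB did not pass the test in either direction.

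The files hold values on the TPM scale (transcript abundance, as reads divided by exon length and scaled to the library) in which every value of 1 or more has lost its decimal point. The digits are intact, and dividing by what 1 read is worth gives a whole number of reads, so that each value leaves a ladder of read numbers that differ by powers of 10. Among the 60 values of the 10 genes, 59 had lost the point. The place was taken as the likeliest under a negative binomial model with a mean for each group, and genes with a posterior probability under 0.9 were set aside. With this rule all 10 genes passed both this limit and the filter on low reads (10 reads at the median library size in 3 samples and 15 in all).

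Certainty differed between the genes. For 6 genes, crc, Xbp1, cnc, maf-S, CrebA and CrebB, every value stood at its smallest admissible place with a posterior probability of at least 0.997 under each of 3 models: with the sample groups, without them, and with the groups and a flat prior on the spread. Xrp1 was the least certain. Its smallest admissible reads were 604, 69 and 99 in mac>DfosDN and 330, 3453 and 267 in control samples, which are scattered within both groups. The model with the groups moved 4 of these 6 values up by a factor of 10, to 604, 690 and 990 reads in mac>DfosDN and 3300, 3453 and 2670 in control samples, with a least posterior of 0.977. The model without the groups left all 6 at the smallest place, with a least posterior of 0.725, and the flat prior moved up only the values of control replicates 1 and 3, with a least posterior of 0.518. The groups that place these points are the groups the test then compares, so the fall of Xrp1 is not independent of its restoration.

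**Figure D1:**
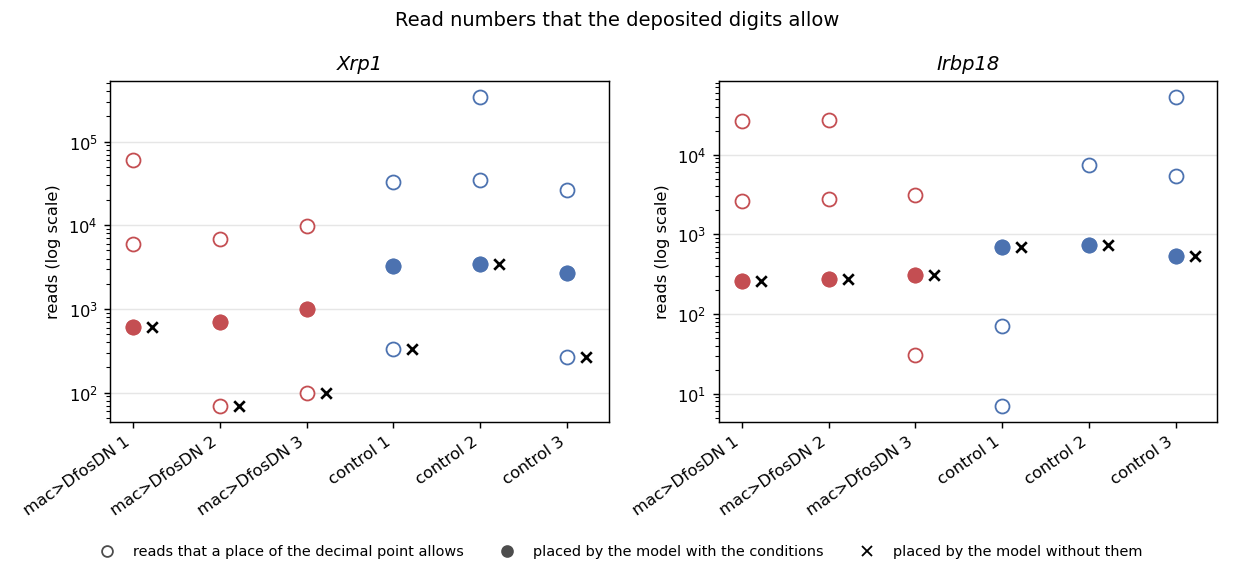
Read numbers that the deposited digits of Xrp1 (left) and Irbp18 (right) allow in each sample (y axis, reads on a log scale, the 3 lowest per value), with mac>DfosDN samples in red and control samples in blue. Filled points were chosen by the model that uses the sample groups and crosses by the model that does not: for Xrp1 they part in 4 samples, and for Irbp18 they coincide in all 6.

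Irbp18 was better determined. Its smallest reads were 263, 274 and 31 in mac>DfosDN and 7, 733 and 535 in control samples. Both the model with and the model without the groups read 310 for the 31 and 700 for the 7, and the flat prior did so too. The least posterior was 0.998 with the groups, 0.824 without them and 0.987 with the flat prior, so the gene was set aside by the model without the groups at the limit of 0.9. Atf6 has 1 value moved up, from 36 to 360 reads in control replicate 2, by all 3 models, with a least posterior of 0.889 under the flat prior. Atf3 kept its decimal point in mac>DfosDN replicate 2 and stood at the smallest place elsewhere, with a least posterior of 0.931 with the groups and 0.886 with the flat prior, in control replicate 1.

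As the check of the transgene, kay itself had 15.8, 18.3 and 14.4 TPM in mac>DfosDN against 5.78, 12.6 and 12.1 TPM in control samples. Reads on kay can come from the endogenous gene and from the transgene. The 2 groups did not overlap, with a log2 fold change of 0.68 (SE 0.30, limma adjusted p = 0.254). Library depth was even, at 8331749 to 8946526 restored reads in mac>DfosDN and 8646616 to 9767090 in control samples. The macrophage identity of the cells was plain from Nimrod C4, a receptor for engulfed cells, at a mean of 9255 TPM in mac>DfosDN and 15506 TPM in control samples. The summed level of 14 macrophage markers was 9101 to 13442 TPM in mac>DfosDN and 15664 to 21097 TPM in control samples, mostly NimC4, which was called lower while gcm, a factor of the blood and glial lineages, was called higher. The 3 crystal cell markers summed to 510 to 2016 TPM in mac>DfosDN and 392 to 5111 TPM in control samples, nearly all from PPO1 and PPO2, whose decimal places were under the limit. Markers of muscle, neurons and glia, epidermis and tracheae, and amnioserosa summed to at most 44.2 TPM in any sample, and bam was at 0. Those of fat body, gut, yolk and germ line summed to 5.67 to 12.0 TPM in mac>DfosDN and 1.37 to 3.49 TPM in control samples, with GATAe, a gut factor, called higher. The part of these shifts in the results was not tested. In such bulk samples fewer cells of a type and less RNA per cell cannot be told apart.

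Xrp1 (FBgn0261113, chromosome 3R, 18914968 to 18926989 in the BDGP6.54 annotation, plus strand) encodes a factor induced by radiation and required for the elimination of cells that lack a copy of a ribosomal protein gene. At the likeliest places it had 16.3, 21.5 and 26.6 TPM in mac>DfosDN against 83.7, 89.4 and 78.2 TPM in control samples. All 3 mac>DfosDN samples were then far below all 3 control samples. Its log2 fold change was −1.94 (SE 0.20, 95% confidence interval −2.38 to −1.49, limma adjusted p = 0.000575), and limma-voom on the restored reads gave −1.99 (adjusted p = 3.82e-06). At the places of the model without the groups, with no limit, the log2 fold change was −1.74 with a SE of 0.94 (limma adjusted p = 0.399). With the smallest place for every value it was −1.74 with a SE of 1.13 (limma adjusted p = 0.624). Both settings leave every value of Xrp1 at its smallest place, so they test the same places. The places of the flat prior were not tested. The direction was thus the same at the likeliest and at the smallest places. The size of the spread, and with it the call, followed the choice of place. The interval above covers the spread between samples at fixed places and not the doubt about the places.

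Irbp18 (FBgn0036126, chromosome 3L, 11097446 to 11098186, minus strand) encodes a C/EBP-like protein found by its binding to the ends of the P element, and is the partner of Xrp1. It had 55.9, 67.2 and 65.6 TPM in mac>DfosDN and 139.5, 149.1 and 123.1 TPM in control samples. The highest mac>DfosDN sample was below the lowest control sample by a wide margin, and the spread within each group was small. On the log2 scale the difference was −1.11 (SE 0.15, 95% confidence interval −1.45 to −0.78, limma adjusted p = 0.00342), with −1.13 from limma-voom (adjusted p = 0.00302). The call held under 27 of the 29 alternatives that gave a value, including the model without the groups and with no limit (log2 fold change −1.12, limma adjusted p = 0.0149). It was lost only with the smallest place for every value, in both tests, where 7 and 31 reads stand beside 263 to 733. Most of the other alternatives kept the places of Irbp18 unchanged and so do not bear on the doubt about them. Of its exon bases 15.5% are shared with CG33947 on the opposite strand, none of them in the last 500 bases where 3′ end reads fall.

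Both partners thus lay lower, Xrp1 at its likeliest places, which were set with the groups and remain uncertain. Irbp18 averaged 62.9 ± 6.12 TPM in mac>DfosDN and 137 ± 13.1 TPM in control samples, and Xrp1 21.5 ± 5.16 TPM in mac>DfosDN and 83.7 ± 5.6 TPM in control samples (SD, n = 3 each). The genes whose pattern over the 6 samples was most like that of Xrp1, by Pearson's r of log2(TPM + 1), were SelR, a methionine sulfoxide reductase (r = 0.993), Irbp18 itself (r = 0.99) and the serine protease gene teq (r = 0.987). For Irbp18 they were teq (r = 0.994), SelR (r = 0.993) and CG9372 (r = 0.992). These correlations describe 6 samples in 2 groups, and 83 genes for Xrp1 and 67 for Irbp18 had an r above 0.95. teq had 3.34 ± 0.45 TPM in mac>DfosDN and 9.02 ± 0.62 TPM in control samples, and SelR 3.14 ± 0.52 TPM against 17.7 ± 2.78 TPM (SD, n = 3 each). The reads of SelR and CG9372 were placed differently when the groups were not used, so their likeness shares the limit given for Xrp1, while teq was placed alike. Every r with Xrp1, those of teq and Irbp18 included, rests on the places of Xrp1 set with the groups and shares that limit too.

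**Figure D2:**
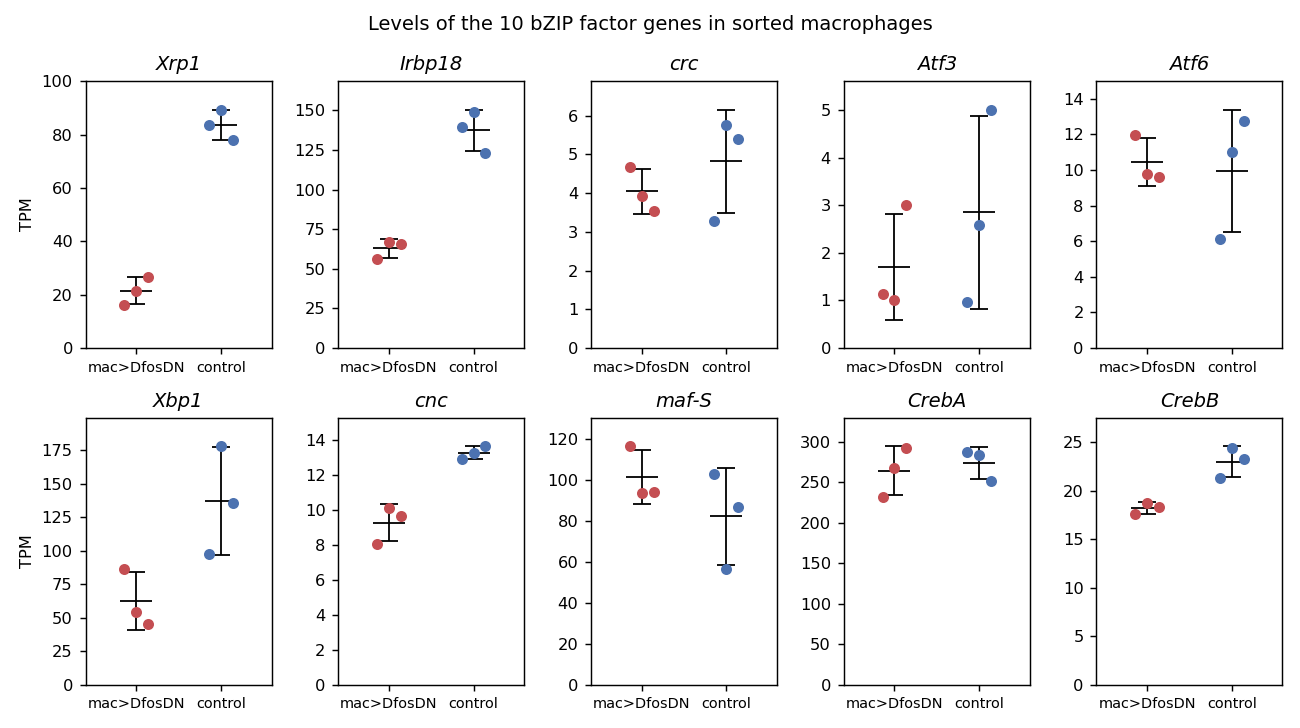
Level of each of the 10 genes in TPM (y axes, from 0) in the 3 mac>DfosDN samples (red, left) and the 3 control samples (blue, right). Points are samples in the order of their replicate numbers, and bars give the mean and SD: Xrp1 (at its likeliest, uncertain places), Irbp18, Xbp1, cnc and CrebB do not overlap between the groups, and the other 5 do.

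The ER stress branch was led by Xbp1 (FBgn0021872, chromosome 2R, 21143545 to 21145750, plus strand), whose mRNA is spliced by the sensor Ire1 to give the active factor. It had 86.7, 54.4 and 45.7 TPM in mac>DfosDN against 97.4, 177.9 and 135.4 TPM in control samples. The groups did not overlap, but replicate 1 of both groups lay close together. The highest value was 1.90-fold the lowest within mac>DfosDN and 1.83-fold within control samples, beside 2.20-fold between the means. This gave a log2 fold change of −1.13 (SE 0.27, 95% confidence interval −1.73 to −0.54, limma adjusted p = 0.0478), and limma-voom gave −1.15 (adjusted p = 0.0100). Its decimal places were certain, and it was lower under all 30 alternatives, from −1.42 to −0.93. The call was kept under 14 of them, and with 1 sample left out at a time limma called it only without mac>DfosDN replicate 1 (−1.40) or without control replicate 1 (−1.36). limma lost it without each of the other 4 samples, at −1.07 and −0.94 without mac>DfosDN replicates 2 and 3 and at −0.93 and −1.12 without control replicates 2 and 3, while limma-voom lost it only without mac>DfosDN replicate 3 or control replicate 2. Reads per gene do not tell the spliced form from the unspliced one.

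Atf6 (FBgn0033010, chromosome 2R, 5144733 to 5154756, plus strand) encodes a factor held in the ER membrane until proteases release it under stress. It had 12.0, 9.77 and 9.60 TPM in mac>DfosDN and 6.11, 11.0 and 12.7 TPM in control samples, where control replicate 1 stood apart at the low end. Between the groups the log2 fold change was 0.11 (SE 0.29, 95% confidence interval −0.53 to 0.75, limma adjusted p = 0.881). Without control replicate 1 it was −0.17, so its sign rests on that sample.

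crc, or cryptocephal (FBgn0000370, chromosome 2L, 21310866 to 21319527, plus strand), encodes the fly ATF4, made when eIF2alpha is phosphorylated. It had 4.69, 3.92 and 3.53 TPM in mac>DfosDN and 3.29, 5.76 and 5.41 TPM in control samples, and the groups overlapped. With a log2 fold change of −0.18 (SE 0.29, 95% confidence interval −0.82 to 0.45, limma adjusted p = 0.789), a fall of the size seen for Irbp18 lies outside the interval from all 6 samples. The value itself was unsteady, at −0.39 without control replicate 1, −0.06 without control replicate 2, −0.10 without control replicate 3 and −0.11 without mac>DfosDN replicate 3. The level of crc may be understated: CG46314, annotated on the same strand, shares 73.5% of its exon bases, with all of the last 500, and is listed at 0 in all 6 samples. Whether reads shared by 2 genes were dropped is not given in the sources used here. As crc is known to be controlled at translation, mRNA level is not its activity.

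Atf3 (FBgn0028550, chromosome X, 1242740 to 1275284, minus strand), a factor of immune and metabolic balance that can pair with Jun, was the lowest of the 10. It had 1.13, 1.01 and 3.00 TPM in mac>DfosDN and 0.98, 2.58 and 5.01 TPM in control samples. Replicate 3 was the highest of each group, and the spread was the widest among the 10 genes, 2.97-fold within mac>DfosDN and 5.13-fold within control samples. The log2 fold change of −0.44 (SE 0.43, limma adjusted p = 0.650) had a 95% confidence interval of −1.40 to 0.52, which still holds a fall as large as that of Irbp18. The value moved with single samples, to −0.85 without control replicate 1, −0.05 without control replicate 3, −0.75 without mac>DfosDN replicate 3 and −0.26 without mac>DfosDN replicate 2.

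**Figure D3:**
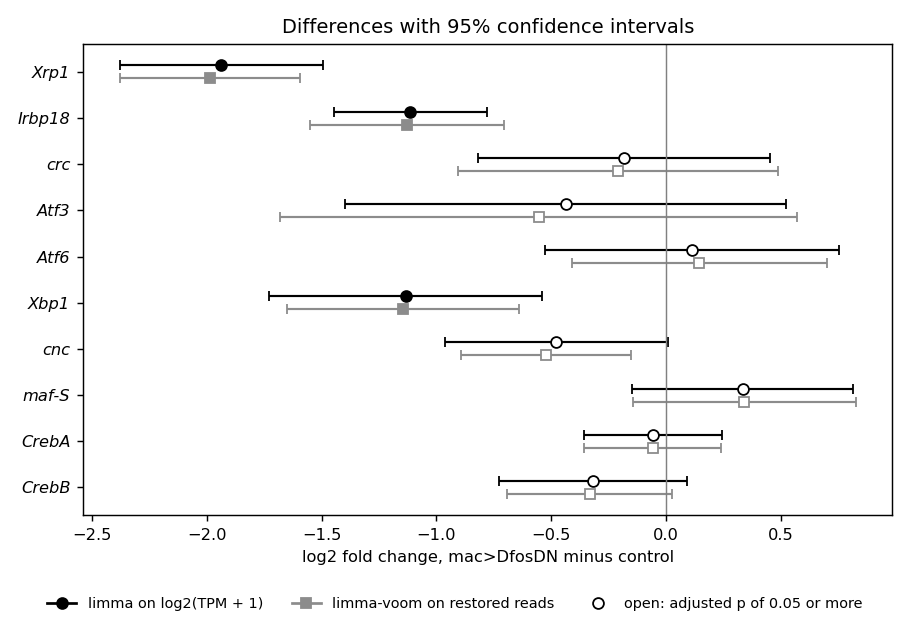
Log2 fold change of each gene (x axis, mac>DfosDN minus control) with its 95% confidence interval from limma on log2(TPM + 1) (black circles) and from limma-voom (grey squares). Filled symbols have an adjusted p under 0.05: Xrp1, Irbp18 and Xbp1 in both tests, where the interval for Xrp1 takes its uncertain decimal places as given.

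Neither gene of the antioxidant pair passed the test. cnc (FBgn0262975, chromosome 3R, 23185580 to 23226711, minus strand), the fly Nrf factor, had 8.06, 10.1 and 9.68 TPM in mac>DfosDN against 12.9, 13.3 and 13.6 TPM in control samples. The groups did not overlap and the control samples were within 1.06-fold of each other. Its log2 fold change was −0.48 (SE 0.22, 95% confidence interval −0.96 to 0.01, limma adjusted p = 0.283), and limma-voom gave −0.52 (adjusted p = 0.107), the smallest adjusted p that any of the 7 genes not called had under any alternative. maf-S (FBgn0034534, chromosome 2R, 20640976 to 20641668, plus strand), the small Maf partner of Cnc, had 116, 93.5 and 94.1 TPM in mac>DfosDN and 103, 56.6 and 86.8 TPM in control samples. The groups overlapped through control replicate 1, with a log2 fold change of 0.33 (SE 0.22, 95% confidence interval −0.15 to 0.82, limma adjusted p = 0.462). It was 0.52 without control replicate 1 and 0.09 without control replicate 2.

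CrebA (FBgn0004396, chromosome 3L, 15535395 to 15553214, plus strand), the fly member of the CREB3 family, was the most abundant of the 10. It had 232, 267 and 292 TPM in mac>DfosDN and 287, 283 and 251 TPM in control samples, and all control values lay within the range of the mac>DfosDN values. A log2 fold change of −0.06 (SE 0.14, 95% confidence interval −0.36 to 0.24, limma adjusted p = 0.870) came with the narrowest interval among the 10 genes. Its sign turned to 0.03 without mac>DfosDN replicate 1.

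CrebB (FBgn0265784, chromosome X, 18366357 to 18377864, plus strand), the target of protein kinase A, had 17.6, 18.8 and 18.4 TPM in mac>DfosDN against 21.3, 24.5 and 23.3 TPM in control samples. The groups did not overlap, yet the gap was small, at a log2 fold change of −0.32 (SE 0.18, 95% confidence interval −0.73 to 0.09, limma adjusted p = 0.408). Its annotated exon length of 4995 bases gave no whole reads, and a length of 5082 bases was taken from the values. On the opposite strand por overlaps 344 of its last 500 bases, and the strand setting of the counting is not given in the sources used here.

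Read against all genes, 3 of the 10 (30%) were called lower, where 2.02% of the 7525 genes tested were called lower and 3.63% in either direction. As the 10 genes were chosen with earlier results of these data known, this share and those below are a description and not a test. Higher calls were 0 of 10 with limma and with limma-voom, at a background of 1.61% in each. At an unadjusted p under 0.05, 3 were lower and 0 higher in limma, where 9.2% of all genes were lower and 8.96% higher. In limma-voom, where cnc joined them, 4 were lower and 0 higher, at a background of 9.54% lower and 8.54% higher. The 3 calls lower were the same genes in limma-voom, where 2.58% of genes were called lower and 4.19% in either direction. The 3 samples of each group did not overlap for 5 of 10 genes (50%), all lower, where 11.7% of the genes tested had all mac>DfosDN values below all control values and 23.7% did not overlap in either direction. With an exact 2-sided permutation test over the 6 samples these 5 reach p = 0.1, the smallest that 3 against 3 can give. Xrp1 is among the 5, and its places were set with the groups, so its permutation p is not a valid one. At the smallest places its reads overlap, at 604, 69 and 99 in mac>DfosDN against 330, 3453 and 267 in control samples. The log2 fold change was below 0 for 8 of 10 genes against 49.5% of all genes tested, and its median was −0.38 over the 10 and 0.0044 over all genes tested. These shares rest on few genes. At the places of the model without the groups and a limit of 0.9, Xrp1 and Irbp18 are not tested, and Xbp1 had a limma adjusted p of 0.0815. Of the 10 genes, 0 of those tested there were called, where 53 of all 7520 genes tested were lower and 53 higher.

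**Figure D4:**
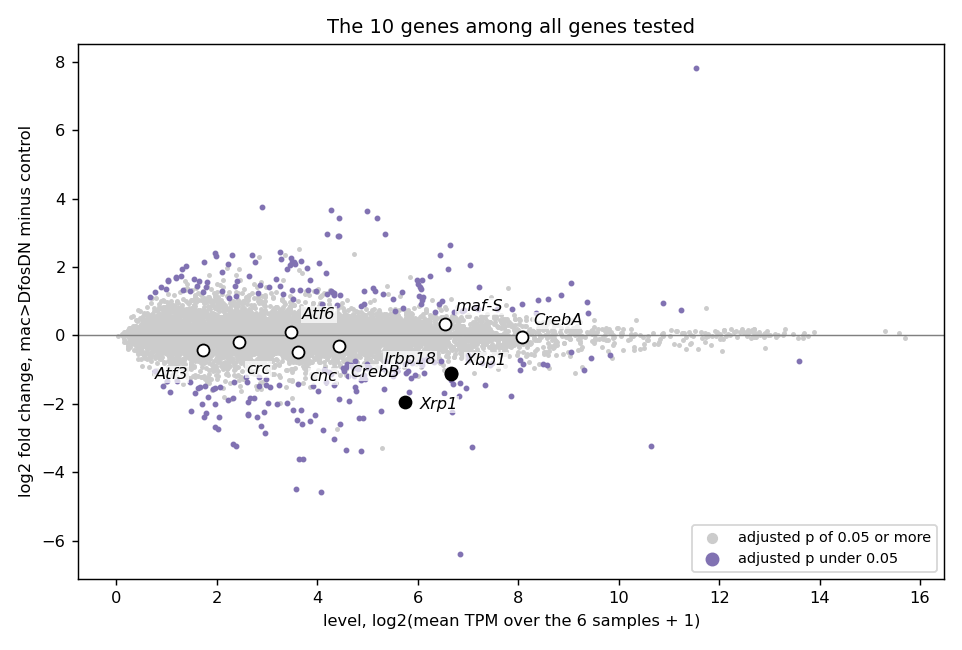
Log2 fold change (y axis, mac>DfosDN minus control) against level (x axis, log2 of the mean TPM over the 6 samples plus 1) for the 7525 genes tested, with the 10 genes named. Genes with an adjusted p under 0.05 are purple, and among the 10 the filled points Xrp1, Irbp18 and Xbp1 (the last 2 nearly on top of each other at −1.11 and −1.13) lie below 0.

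By mean TPM the 10 genes ranked CrebA, maf-S, Irbp18, Xbp1, Xrp1, CrebB, Atf6, cnc, crc and Atf3 in mac>DfosDN macrophages. Neighbours in that order had overlapping ranges for Irbp18 and Xbp1, for Xrp1 and CrebB, and for Atf6 and cnc. In control macrophages CrebA came first again, followed by Irbp18, Xbp1, Xrp1, maf-S, CrebB, cnc, Atf6, crc and Atf3, with overlaps for Irbp18 and Xbp1, Xrp1 and maf-S, and crc and Atf3. The rank of Xrp1 in each order, and so the order around it, rests on its likeliest, uncertain decimal places. As 3′ end libraries give reads near the transcript end, dividing by exon length lowers long genes. By reads scaled to library size (CPM) without the length, CrebA still led, with 996 in mac>DfosDN and 1033 in control samples, while Irbp18 was the eighth in mac>DfosDN and the sixth in control samples. CrebA had a higher mean TPM than 95.7% of the genes tested, Irbp18 than 90.0%, and Atf3 than 19.8%.

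Genes linked to these factors were read from lists that mix their regulators and partners with genes they act on. Each list was described by counts and a median, with values for the genes named, and no list was tested as a set. Of 21 tested genes for sensors of the unfolded protein response, ER chaperones and ER-associated degradation, 1 fell and 0 rose in limma, as in limma-voom, where 2.02% of all genes fell. The gene was CaBP1, a protein disulfide isomerase, with 728 ± 108 TPM in mac>DfosDN and 1079 ± 59.3 TPM in control samples (SD, n = 3 each, log2 fold change −0.58, limma adjusted p = 0.0478). The log2 fold change was below 0 for 18 of the 21, with a median of −0.27, and 7 did not overlap in the lower direction (33.3% against 11.7% of all genes). At an unadjusted p under 0.05 there were 8 lower and 0 higher, where 9.2% of all genes were lower and 8.96% higher. The most abundant were Calr, the calcium-binding chaperone calreticulin, with 3334 ± 227 TPM in mac>DfosDN and 4017 ± 190 TPM in control samples, and ERp60, with 1662 ± 95.6 TPM in mac>DfosDN and 1911 ± 132 TPM in control samples (SD, n = 3 each).

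Of 35 tested genes of the secretory machinery that CrebA is known for, 1 fell and 0 rose in limma, where 2.02% of all genes fell, and 3 fell in limma-voom, where 2.58% fell. gammaCOP, a subunit of the coat of vesicles that return to the ER, had 37.4 ± 6.20 TPM in mac>DfosDN and 67.9 ± 8.26 TPM in control samples (SD, n = 3 each), a log2 fold change of −0.85 (limma adjusted p = 0.0332). limma-voom added alphaCOP and Srp72. The log2 fold change was below 0 for 29 of the 35, with a median of −0.28, and 12 did not overlap in the lower direction (34.3% against 11.7% of all genes). At an unadjusted p under 0.05 there were 14 lower and 0 higher, at a background of 9.2% lower and 8.96% higher. CrebA itself did not pass the test. The 2 most abundant, Sec61beta of the translocon and Spase12 of the signal peptidase, had log2 fold changes of −0.03 and −0.36 and did not pass the test.

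**Figure D5:**
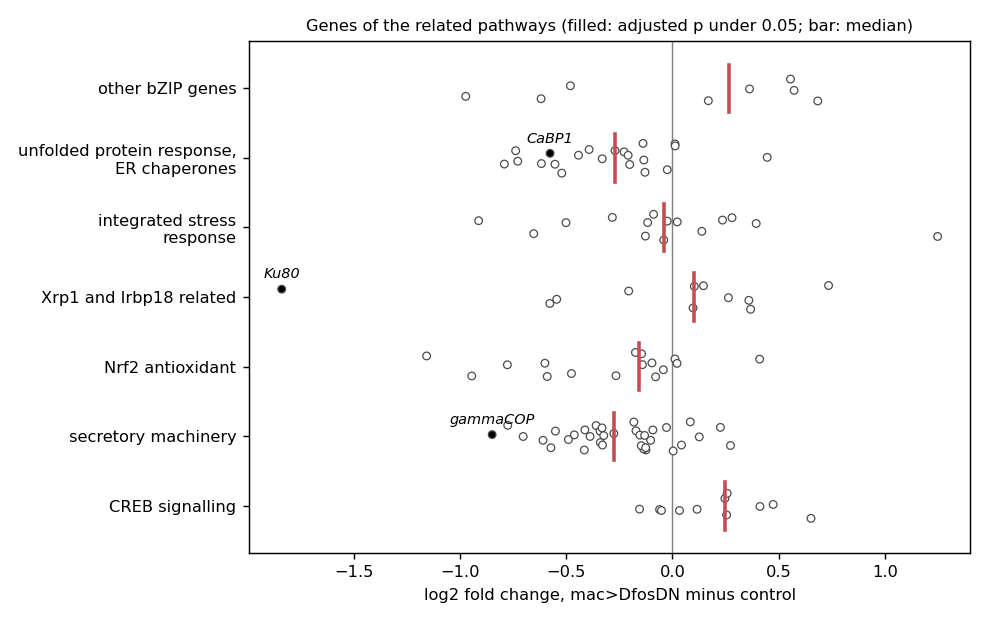
Log2 fold change (x axis, mac>DfosDN minus control) of the tested genes of 7 lists (rows); each point is a gene, filled where the adjusted p is under 0.05, and the red bar is the median. CaBP1, Ku80 and gammaCOP are the only genes called, and the medians of the unfolded protein response and secretory lists lie at −0.27 and −0.28.

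For Xrp1 and Irbp18, 11 related genes of P element end binding, p53 and DNA damage were tested, of which 1 fell and 0 rose, at a background of 2.02% lower and 1.61% higher. Ku80, a subunit of the Ku complex in the repair of double-strand breaks, had 48, 15 and 32 reads in mac>DfosDN against 138, 182 and 154 reads in control samples. Every value stood at its smallest place, and the level was 1.83 ± 0.87 TPM in mac>DfosDN and 8.88 ± 1.36 TPM in control samples (SD, n = 3 each), a log2 fold change of −1.84 (limma adjusted p = 0.0103). The median of the list was 0.10, and rpr, a death gene, and RpS3, the most abundant of the list, did not pass the test, with log2 fold changes of −0.21 and 0.15.

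No gene passed the limma test in 4 further lists, whose counts at an unadjusted p under 0.05 stand beside 9.2% lower and 8.96% higher over all genes. Among 15 genes of the integrated stress response and of ATF4 targets (median −0.04), 2 were lower and 1 higher at an unadjusted p under 0.05, and limma-voom called 0. The most abundant, CG10924 and eIF2alpha, had log2 fold changes of −0.50 and −0.04. Among 16 antioxidant genes (median −0.16), 4 were lower and 0 higher at an unadjusted p under 0.05, and limma-voom called 1, the peroxiredoxin Jafrac1, lower. Jafrac1 shares the doubt given for Xrp1: 2 of its values were moved up, its reads were placed differently when the groups were not used, and its least posterior was 0.615 without the groups and 0.671 with the flat prior. GstE6 and Men, the most abundant, had log2 fold changes of −0.59 and −0.10. Among 11 genes of CREB signalling (median 0.25), 0 were lower and 1 higher at an unadjusted p under 0.05 and limma-voom called 0, with nej, the co-activator CBP, and Crtc at 0.25 and 0.26. Among 8 other bZIP genes, kay included (median 0.27), 2 were lower and 3 higher at an unadjusted p under 0.05, limma-voom called 0, and REPTOR-BP and Pdp1, the most abundant, had log2 fold changes of −0.62 and 0.17.

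For Xbp1, the genes with the most similar pattern over the 6 samples were the serpin gene Spn55B (r = 0.991), the noncoding CR44849 (r = 0.99) and kcc, a cation and chloride cotransporter (r = 0.988), among 50 genes with an r above 0.95. Spn55B fell as well, to 15.9 ± 5.32 TPM in mac>DfosDN against 40.4 ± 10.9 TPM in control samples (SD, n = 3 each), a log2 fold change of −1.31 (limma adjusted p = 0.0272). Of the values of Spn55B, 1 was moved up, alike with and without the groups. Its least posterior was 0.855 without the groups, under the limit of 0.9. CR44849 and kcc did not pass the test, with log2 fold changes of −1.21 and −0.91.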

How the data were processed

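RNA from sorted macrophages was made into 3′ end libraries by the study's methods (the labels name a standard Illumina protocol), aligned to BDGP6 with STAR 2.5.1b and counted with HTSeq 0.5.4p3, and the submitters' notes also list R 3.4.4, edgeR and limma. The authors deposited 1 column per sample, treated as a score because values of 1 or more on its TPM scale lack the decimal point. The 10 genes and the lists were chosen with earlier results of these data known.

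Reads were recovered with exon lengths of the BDGP6.54 annotation, within a tolerance of 1e-06. Between 97.9% and 98.4% of values that kept the point were whole. Where no length, or only reads with a shared factor, resulted, lengths within 60% were searched and the one with the smallest reads was taken (106 genes), a rule revised after an earlier one gave TPM sums that were too high. Sums are now 982361 to 990687. Of 12027 genes placed, 365 were under the limit of 0.9 and 11662 were kept. The reads of the 10 genes had been seen before the last rule was set.

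Tests were limma 3.58.1 in R 4.3.3 on log2(TPM + 1) with an intensity trend, 2-sided, with TMM factors (trims of 0.3 and 0.05) computed here, since the deposited values are no counts. limma-voom on the restored reads was an alternative. The steps were also run on simulated data, restored only by the model with the groups, which does not bear on the doubt about Xrp1. Genes named are the 10, kay, in each list those called and the 2 most abundant, and for each gene called its 3 most correlated. Markers and overlapping genes were named after their values were seen. Replicates of a group differed beyond sampling noise (chi-square per degree of freedom of 25.7 to 38.9).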

Additional observations from a re-analysis of the deposited data

How the results depend on the processing

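Over 30 alternatives (19 planned, 11 added after seeing the data), the 10 genes had 293 values, of which 267 kept direction and side of the threshold, 22 lost the call and 4 turned direction; for the 7 genes not called none of 207 passed. Of 152 genes lower and 121 higher, the counts were 53 and 53 by the model without the groups (limit 0.9), 64 and 61 without a limit, 12 and 6 at the smallest places, 58 and 55 with every gene of at least 1 read, and 91 lower without the intensity trend. limma-voom gave 8 and 4 at the smallest places, 93 and 69 without the groups, and 244 lower with the replicate block. Of the 10 genes, 3 were called; by the model without the groups 0 were called at the limit and 1 without it, and 0 at the smallest places in both tests. Xrp1 was not tested at a limit of 0.99, nor without the groups or with the flat prior at 0.9, and lost its call at −1.74 (no groups, no limit) and −1.74 (smallest), and in limma-voom at −1.96 and −1.98. Irbp18 lost it at the smallest places, at −0.20 and, in limma-voom, −0.034. Xbp1 lost it at −1.12 (no groups, limit 0.9), −1.14 (no limit), −1.14 (no groups, no limit), −1.14 and, in limma-voom, −1.15 (smallest), −1.13 (at least 1 read), −1.15 and −1.08 (pseudocounts 0.1 and 5) and −1.13 (no trend). Leaving out 1 sample in turn, in both tests, the counts ranged from 55 to 215 lower and 56 to 120 higher, with 2 or 3 of the 10 genes called, and fold changes from −1.42 to −0.93 for Xbp1, −0.18 to 0.35 for Atf6, −1.20 to −0.04 for Atf3, −0.47 to −0.05 for crc, 0.09 to 0.53 for maf-S and −0.14 to 0.033 for CrebA. Same-numbered samples did not deviate together (r of −0.04, 0.03 and 0.02), and with the replicate block Xbp1 was at −1.13 (limma adjusted p = 0.079). The 95% intervals limit what 3 samples per group can show.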
